A study of Saccharomyces cerevisiae with 3 samples.

Results

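Large-subunit ribosome assembly genes encode the nucleolar, nuclear and cytoplasmic proteins that build the large ribosomal subunit but are not part of the finished particle. The 43 genes described here were listed by name, by a rule that uses no measured value, but with earlier results of these data known. All 43 were found among the 6002 nuclear protein-coding genes of the RefSeq annotation (assembly R64, the assembly that the build sacCer3 names). MDN1 is listed there under its other name, REA1. The cells were budding yeast (Saccharomyces cerevisiae) of the haploid laboratory strain BY4741, taken in mid-log growth in rich glucose medium (YEPD) and fixed with formaldehyde. All 3 samples share strain and growth, and the labels give no mutation or treatment beyond the strain. They are 1 library of micrococcal nuclease-cut chromatin precipitated with an antibody against histone H3 trimethylated at lysine 4 (H3K4me3), 1 precipitated with an antibody against the dimethylated form (H3K4me2), and 1 input without antibody, which was not analysed here.

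In yeast, the methyltransferase Set1, within the complex COMPASS, places all methyl groups on lysine 4 of histone H3. H3K4me3 is typical of the first nucleosomes of transcribed genes, and H3K4me2 of the nucleosomes that follow. Large-subunit assembly starts on the RNA polymerase I transcript in the nucleolus, where helicases, RNA-binding proteins and methyltransferases fold and modify the RNA. It goes on in the nucleoplasm, where GTPases and the giant ATPase Mdn1 remodel the particle, and ends in the cytoplasm, where export factors and placeholder proteins are released. The genes of this pathway are known as part of the ribosome biogenesis regulon, which is strongly transcribed in fast-growing cells.

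The data are the authors' peak lists, 3714 regions for H3K4me3 and 2998 for H3K4me2, each with a tag count, a fold enrichment over a background that the files do not name, and a summit. Peaks held 128 to 2689 H3K4me3 tags or 170 to 1776 H3K4me2 tags, but the depth of each library is unknown, because tags outside peaks are not listed. With 1 library per mark there is no replicate spread, so no test between marks or between gene sets was run. Intervals are exact (Clopper-Pearson) 95% intervals, cover counting error only and treat genes as independent. For a count of 0, the limit that 3 counts of the total would give is printed with the exact upper bound after it. Distances are in bp from the first base of the start codon, negative upstream and positive into the gene, since the annotation gives spans from start to stop codon.

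H3K4me3 covered the starts of nearly all large-subunit assembly genes, and H3K4me2 covered less than 50% of them by the same rule. A start was called marked when peaks covered at least 50% of the first 500 bp of the gene. H3K4me3 met this at 41 of 43 genes (95.3%, interval 84.2 to 99.4), beside 64.6% of all nuclear protein-coding genes. H3K4me2 met it at 19 of 43 (44.2%, 29.1 to 60.1), beside 43.5% of all genes. Both marks lay over those same 19 starts, beside 38.4% of all genes. H3K4me3 alone lay over 22 starts (51.2%), beside 26.2% of all genes. H3K4me2 without H3K4me3 was found at 0 of 43 starts, which allows a share of up to 6.98% (exact upper bound 8.22%), beside 5.1% of all genes. CIC1 and MDN1 met the rule for neither mark, beside 30.3% of all genes. H3K4me3 covered every base of the window in 37 of 43 genes, beside 56.2% of all genes. Among H3K4me3-marked genes alone it was 37 of 41, beside 3371 of 3880. The share with H3K4me3 lay above that of all genes, and under this rule the share with H3K4me2 was close to that of all genes. Among H3K4me3-marked genes alone, the share with both marks was lower in the members, 19 of 41 beside 2307 of 3880. H3K4me3 alone lay over 22 of those 41 starts, beside 1573 of 3880. The H3K4me2 share depended on the rule. With at least 75% of the window covered it was 18.6%, beside 32.3% of all genes, and with at least 25% it was 55.8%, beside 48.1%. Over the first 300 bp it was 20.9%, beside 34.1%. With a window reaching 500 bp either way from the start codon it was 6.98%, beside 24.4%, and with every peak cut to 500 bp around its summit it was 6.98%, beside 16.4%.

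**Figure D1:**
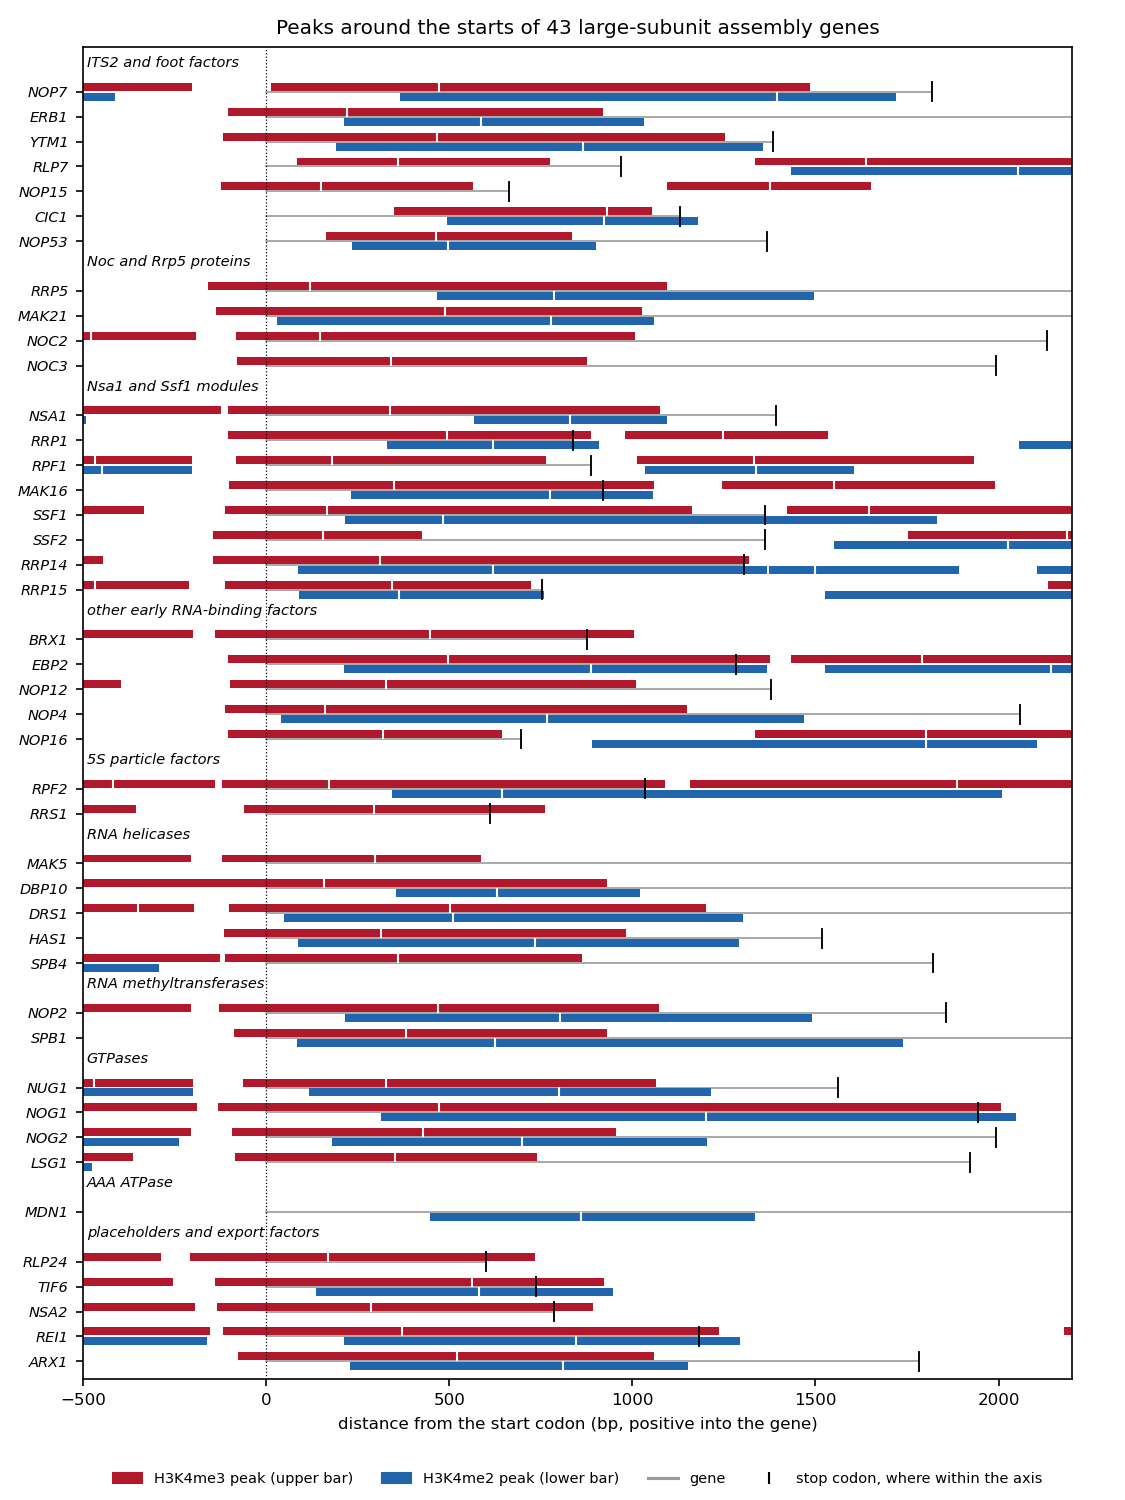
Peaks of H3K4me3 (upper bars) and H3K4me2 (lower bars) around the start codons of the 43 large-subunit assembly genes, drawn to scale in bp from the start codon and grouped by role; white lines mark summits, grey lines the gene and black ticks the stop codon. Every peak that enters the axis is drawn, those of neighbouring genes included. In 38 of 43 genes an H3K4me3 peak spans the start codon, in 0 of 43 an H3K4me2 peak does, and MDN1 is the only gene with no H3K4me3 bar.

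The factors that bind the second internal transcribed spacer and form the foot of the precursor particle held most of the exceptions. Of these 7 genes, 6 were marked by H3K4me3 and 3 by H3K4me2. ERB1 (YMR049C, chromosome XIII, 368094 to 370517), whose product joins Nop7 and Ytm1 in the complex needed for removal of the spacer, had the strongest H3K4me3 peak of the group at 3.78-fold with 548 tags. YTM1 had a 3.30-fold peak over all of its start window. NOP15, an RNA-binding protein gene of 663 bp, had H3K4me3 alone at 3.18-fold. The other 4 genes were the only members in which the H3K4me3 peak at the start did not reach the start codon. The peak began at 13 bp in NOP7 (YGR103W, 2.80-fold, the lowest fold among the 41), at 83 bp in RLP7, which encodes a relative of ribosomal protein L7, at 163 bp in NOP53, a gene for a factor that recruits the RNA exosome, and at 348 bp in CIC1. The H3K4me3 peak began before the start codon in 38 of the 41 marked members, beside 91.5% of all H3K4me3-marked genes. The RLP7 peak had 247 tags and a score of 95.94, the lowest score among the 41.

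CIC1 (YHR052W, chromosome VIII, 210848 to 211978), whose product binds the same spacer, carried both marks in the second part of the gene. Its H3K4me3 peak ran from 348 to 1054 bp (2.30-fold, 194 tags, score 82.68) and covered 30.4% of the start window and 62.5% of the gene. Its H3K4me2 peak ran from 495 to 1179 bp (2.72-fold, 244 tags, score 65.62), with the summits of both marks 7 bp apart, at 931 bp for H3K4me3 and 924 bp for H3K4me2. The H3K4me3 fold was lower than that of any of the 41 marked members. The nearest H3K4me3 peak upstream ended at -589 bp, over COX6, the neighbouring gene in the same direction.

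MDN1 (YLR106C, chromosome XII, 349006 to 363738), at 14733 bp the longest member and the gene of the ATPase that pulls assembly factors off the particle, had no base under H3K4me3. An H3K4me2 peak from 448 to 1334 bp (2.69-fold, 357 tags, score 91.4) was the only peak of either mark over the gene. It covered 10.4% of the start window and 6.02% of the gene. Within 2000 bp of the gene the only H3K4me3 peak lay past the stop codon, over LCL2. The divergent neighbour REX3, whose start lies 377 bp away, had neither mark over its start.

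The genes of Rrp5 and the Noc proteins all had H3K4me3. MAK21 (also known as NOC1) reached 3.84-fold, NOC2 3.77-fold, RRP5 3.42-fold and NOC3 3.21-fold. H3K4me2 lay over the start of MAK21, where it began at 30 bp, the earliest H3K4me2 start of all members. In RRP5 (YMR229C), 5190 bp long, H3K4me2 began at 468 bp and ran to 1496 bp, while H3K4me3 ran from -159 to 1094 bp. NOC2 and NOC3 had no H3K4me2 over any base.

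All 8 genes of the Nsa1 and Ssf1 modules, which stabilise early domains of the large-subunit RNA, carried H3K4me3, and 4 of them H3K4me2. RRP14 (YKL082C, chromosome XI, 281025 to 282329) had the highest H3K4me3 fold of the members, 4.03-fold with 722 tags, in a peak from -146 to 1320 bp that spans the gene. RRP15, of the same module, was among the next at 3.87-fold with 362 tags. MAK16, at 3.37-fold, was covered over its full length by H3K4me3 and over 74.9% by H3K4me2. NSA1 (3.31-fold), RRP1 (3.19-fold) and RPF1 (3.15-fold) had H3K4me3 alone over the start. H3K4me2 was present farther into NSA1, over 37.9% of the gene, and in RRP1, over 60.7%, but over no base of RPF1.

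SSF1 and SSF2 are paralogues from a genome duplication, both 1362 bp long, and either can serve the same step. Both had H3K4me3 over the start codon at nearly the same fold, 3.23 in SSF1 and 3.21 in SSF2. The peak of SSF1 (YHR066W, chromosome VIII, 229335 to 230696) ran from -112 to 1164 bp with 485 tags, and that of SSF2 (YDR312W, chromosome IV, 1087581 to 1088942) from -146 to 426 bp with 228 tags, the narrowest H3K4me3 start peak among the members at 573 bp. Per kb of peak the tags were 380 in SSF1 and 398 in SSF2. H3K4me2 covered 84.1% of SSF1, in a peak from 216 to 1833 bp that runs on into HTD2, and no base of SSF2. The sources used here do not say how reads that match both genes were placed, and its part in the difference was not tested.

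Among the other early RNA-binding factors, all 5 had H3K4me3 and 2 had H3K4me2. NOP12 (YOL041C), whose RNA-binding product helps the precursor RNA to fold, was second among the members at 4.02-fold with 487 tags, and had no H3K4me2 over any base. NOP4 (3.49-fold) had H3K4me2 from 40 to 1470 bp, the broader of its marks. EBP2 (3.17-fold, 750 tags) was covered over its whole length by H3K4me3 and over 83.5% by H3K4me2, whereas its partner BRX1 (2.98-fold, 467 tags, the lowest fold among the 41 after NOP7 and MAK5) was covered by H3K4me3 alone. NOP16 had H3K4me3 alone at 3.46-fold. The 2 factors that bring in the 5S particle, RPF2 (3.17-fold) and RRS1 (3.71-fold), had H3K4me3 over their full length. H3K4me2 covered 31.4% of the RPF2 window and 0% of RRS1.

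The 5 RNA helicase genes all had H3K4me3, with DRS1 (YLL008W) at 4.01-fold and 720 tags next to RRP14 and NOP12 among the members, followed by DBP10 at 3.72-fold, HAS1 at 3.52-fold, SPB4 at 3.07-fold and MAK5 at 2.87-fold with 273 tags. DRS1 and HAS1 also had H3K4me2 over the start, and MAK5 and SPB4 had none in the gene. The DBP10 peak was 2319 bp wide and ran from -1388 to 930 bp across SLM3, the divergent neighbour, so its 1028 tags do not belong to DBP10 alone. Both RNA methyltransferase genes, NOP2 (3.41-fold) and SPB1 (3.75-fold), carried both marks. H3K4me2 covered 65.6% of SPB1 and H3K4me3 36.9%.

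All 4 GTPase genes had H3K4me3 within a narrow range of fold, with 3.69 in NUG1, 3.67 in NOG2, 3.48 in NOG1 and 3.39 in LSG1, the last of which acts in the cytoplasm. NUG1 and NOG2 had H3K4me2 over the start as well, and LSG1 had none. NOG1 (YPL093W, chromosome XVI, 370978 to 372921) was under H3K4me3 from -131 to 2007 bp, the farthest reach into a gene among the members, with 1176 tags, or 550 per kb. It was the only member of at least 1500 bp with H3K4me3 over at least 50% of its last 500 bp (1 of 20), beside 5.03% of all genes of that length. H3K4me2 lay over the last 500 bp of 3 of the 20, NOP7, HAS1 and NOG1, beside 17.2%. The H3K4me2 peak of NOG1, from 313 to 2049 bp, had 1061 tags, or 611 per kb, the highest density of H3K4me2 among the members.

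Of the placeholder and export factor genes, all 5 had H3K4me3, with RLP24, a stand-in for ribosomal protein L24, at 3.70-fold, TIF6, which keeps the subunits apart, at 3.33-fold, NSA2 at 3.31-fold, REI1 at 3.30-fold and the export factor gene ARX1 at 3.19-fold. TIF6, REI1 and ARX1 had H3K4me2 too, and RLP24 and NSA2 had none. The REI1 peaks also lie over SLM6, an annotated gene on the other strand within the same stretch. Over the 41 marked members the H3K4me3 fold had a median of 3.39 (quartiles 3.19 and 3.70), beside 3.12 (2.83 and 3.45) in all 3880 H3K4me3-marked genes. The tags per kb of peak had a median of 443 (408 and 492), beside 410 (371 and 457).

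The upstream edge of H3K4me3 lay at nearly the same place in most members. Over the 41 marked members it had a median of -111 bp with quartiles of -128 and -88 bp, a range between quartiles of 40 bp, beside a median of -130 bp and a range of 94 bp in all H3K4me3-marked genes. After DBP10, RLP24 (-208 bp) and RRP5 (-159 bp) had the edges farthest upstream. In 39 of 41 members the peak touched no other coding gene (95.1%, 83.5 to 99.4), beside 84.6% of all marked genes, the exceptions being DBP10 and REI1. Among the 31 members of at least 1000 bp, H3K4me3 covered 16.1% at its lowest point upstream of the start codon, between -180 and -150 bp, 87.1% at the start codon and 96.8% from 350 to 420 bp. Among all 3592 genes of that length the share was 21.9% at its lowest point, between -270 and -260 bp. It was 64.9% at the start codon and 69.6% at its highest point, 290 bp. No member had more than 1 H3K4me3 peak within the gene, and the same count over all genes is not given here.

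**Figure D2:**
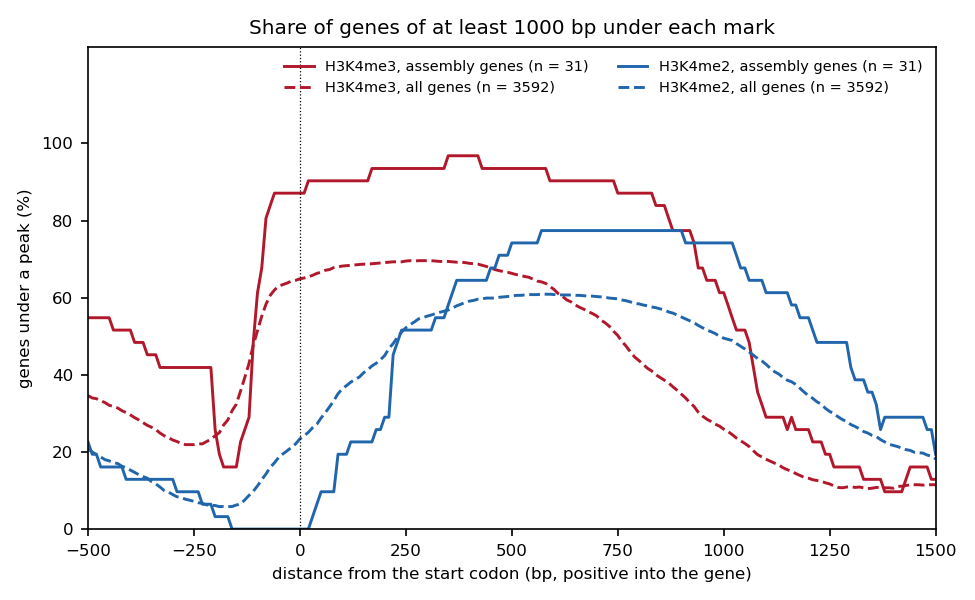
Percentage of genes of at least 1000 bp under a peak (vertical axis) by distance from the start codon in bp (horizontal axis, steps of 10 bp); red lines are H3K4me3 and blue lines H3K4me2, solid for the 31 large-subunit assembly genes and dashed for all 3592 genes. The solid blue line is at 0% from -160 bp to the start codon and at 77.4% between 570 and 900 bp. The dashed blue line stands at 23.4% at the start codon and is highest at 570 bp, with 60.9%.

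The downstream edge of H3K4me3 lay at a median of 984 bp in the members (quartiles 834 and 1089 bp), beside 844 bp (688 and 1048 bp) in all marked genes. NOP7 (1486 bp) and EBP2 (1376 bp) followed NOG1 in reach, and SSF2, NOP15 (565 bp) and MAK5 (587 bp) had the shortest. H3K4me3 covered a median of 71.4% of the gene over all 43 members, beside 40.4% over all genes. Among H3K4me3-marked genes alone the medians were nearly equal, 73.3% in the 41 members and 73.1% in all 3880. In all, 12 of 43 members were covered from start to stop codon (27.9%), beside 18.3% of all genes. Among H3K4me3-marked genes alone it was 12 of 41, beside 1097 of 3880. At 1000 bp into the gene 61.3% of the 31 members of at least 1000 bp were under H3K4me3, beside 25.9% of all genes of that length. Both shares include genes without a marked start, which are more frequent among all genes.

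The summits of the H3K4me3 start peaks, where the tags were densest, ranged from 120 bp in RRP5 to 561 bp in TIF6, with a median of 341 bp, beside 294.5 bp in all marked genes. In bins of 50 bp, 8 of 41 lay between 150 and 199 bp, 8 between 300 and 349 bp and 8 between 450 and 499 bp, with 1 between 200 and 249 bp, 3 between 250 and 299 bp, 6 between 350 and 399 bp and 2 between 400 and 449 bp. In all marked genes the 3 bins with 8 members held 14.3, 14.1 and 7.68%, each more than the bins on either side of it. The bins between them held 2.44, 7.32, 14.6 and 4.88% of the members, beside 8.09, 7.11, 8.25 and 4.72% of all marked genes. Among the members with an early summit were NOC2 (147 bp), NOP4 (160 bp) and RPF2 (172 bp), and among those with a late one DRS1 (501 bp) and ARX1 (522 bp).

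**Figure D3:**
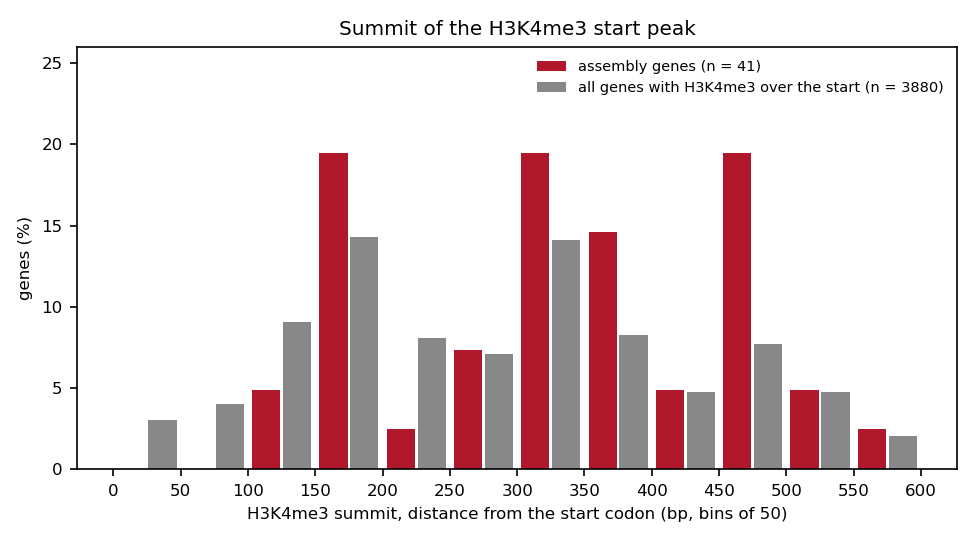
Percentage of genes (vertical axis) whose H3K4me3 start peak has its summit in each 50 bp bin after the start codon (horizontal axis, bp); red bars are the 41 H3K4me3-marked assembly genes and grey bars all 3880 H3K4me3-marked genes, of which those with summits outside 0 to 599 bp are not drawn. Red bars reach 19.5% in the bins that begin at 150, 300 and 450 bp, and the grey bars have local maxima in the same 3 bins.

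H3K4me2 began after the start codon in every member that carried it. The mark covered the first base of the start codon in 0 of 43 genes, which allows a share of up to 6.98% (exact upper bound 8.22%), beside 20.3% of all genes. H3K4me3 covered that base in 38 of 43 (88.4%, 74.9 to 96.1), beside 59.6%. In the 19 members with both marks the H3K4me2 peak began between 30 and 234 bp, with a median of 180 bp, beside a median of 40 bp in all 2307 genes with both marks. It began after the start codon in 19 of 19 members, beside 57% of those genes. The rule for a marked start allows no edge beyond 250 bp in a gene of 500 bp or more, but sets no limit upstream.

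By the centres of the covered bases, H3K4me3 lay nearer the start codon than H3K4me2 in all members that had both marks in the gene. Centres count only bases from start to stop codon, so the part of an H3K4me3 peak upstream of the start codon does not enter. In the 19 members with both marks over the start, the H3K4me3 centre minus the H3K4me2 centre had a median of -132.5 bp. The quartiles were -190 and -72 bp, and the median in all genes with both marks over the start was -109 bp. Summits differed by a median of -317 bp, beside -305 bp. The H3K4me3 summit lay nearer the start codon in 19 of 19 members, beside 87.1% of all genes with both marks. With both marks anywhere in the gene, the H3K4me3 centre was nearer the start codon in 27 of 27 members (100%, 87.2 to 100), beside 87.1% of genes. Where H3K4me3 covered the whole gene, as in MAK16 and EBP2, its centre was the middle of the gene. An H3K4me2 peak that began inside such a gene and ran to its end lay farther in by construction. The distance was largest in SPB1, with centres at 465.5 bp for H3K4me3 and 911.5 bp for H3K4me2 (-446 bp), RRP5 (-435 bp) and NOP2 (-317 bp), and smallest in MAK21 (-31 bp). The downstream edge of H3K4me3 lay nearer the start codon than that of H3K4me2 in 17 of 19 members (89.5%, beside 87.5% of all genes with both), and the exceptions MAK16 and EBP2 differed by 1 and 9 bp.

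The count of H3K4me2 starts rests on how far into the gene the window reaches. In 7 members the H3K4me2 peak lay in the gene but below 50% of the first 500 bp. They were NOP7 (26.8% of the window), RRP5 (6.4%), NSA1 (0%), RRP1 (34.2%), RPF2 (31.4%), DBP10 (28.8%) and NOG1 (37.4%). With CIC1 and MDN1, 28 of 43 members had H3K4me2 somewhere in the gene. The other 15 had none (34.9%), beside 48.5% of all genes. Within the 41 H3K4me3-marked members those 15 are 36.6%, beside 31.2% of all H3K4me3-marked genes.

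Of the 15 members without H3K4me2, 8 were under 1000 bp, and the H3K4me3 peaks of the 15 were narrower at the median. They were RLP7, NOP15, NOC2, NOC3, RPF1, SSF2, BRX1, NOP12, NOP16, RRS1, MAK5, SPB4, LSG1, RLP24 and NSA2. Of the 12 marked members under 1000 bp, 8 had no H3K4me2 base (66.7%, 34.9 to 90.1), beside 50% of all H3K4me3-marked genes of that length. From 1000 to 1499 bp it was 2 of 10, beside 16.9%, from 1500 to 1999 bp 3 of 10, beside 20%, and from 2000 bp 2 of 9, beside 25.3%. H3K4me2 over at least 50% of the start window was found in 3 of 12 marked members under 1000 bp, beside 45.3% of all H3K4me3-marked genes of that length. In the longer classes it was found in 6 of 10, beside 69.8%, 5 of 10, beside 70.4%, and 5 of 9, beside 62.8%. The H3K4me3 peak had a median width of 1190.5 bp in the 26 marked members with some H3K4me2, against 847 bp in the 15 without. In all H3K4me3-marked genes the widths were 1077 bp with some H3K4me2, against 825 bp without. The median length was 1540.5 bp in the 26 members with some H3K4me2, against 969 bp in the 15 without, and the part of gene length in the difference was not tested. The fold of H3K4me3 overlapped widely, from 2.80 to 4.03 in the 26 and from 2.87 to 4.02 in the 15.

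**Figure D4:**
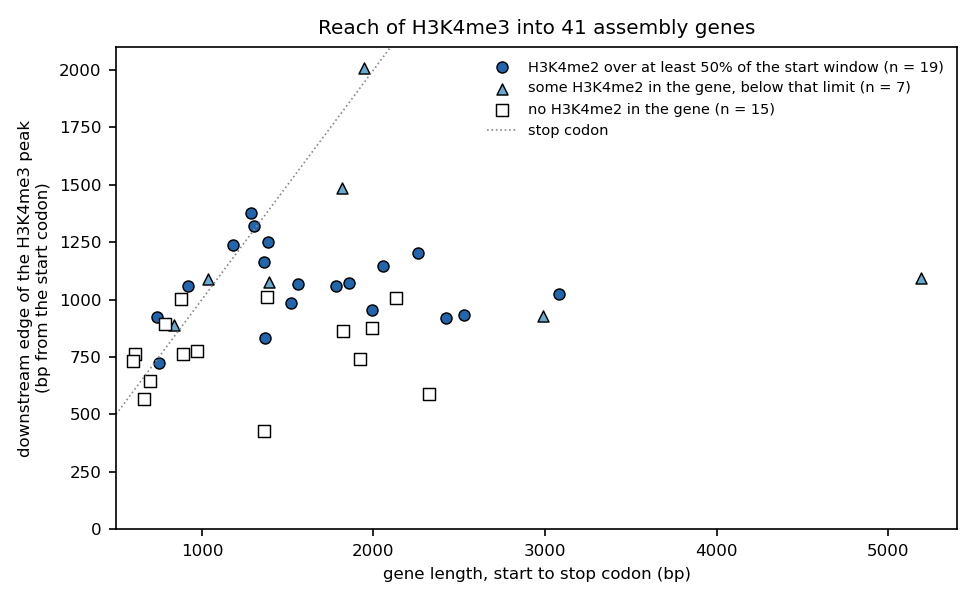
Downstream edge of the H3K4me3 start peak (vertical axis, bp from the start codon) against gene length (horizontal axis, bp) for the 41 large-subunit assembly genes with H3K4me3 over the start; circles have H3K4me2 over at least 50% of the start window (19 genes), triangles some H3K4me2 in the gene below that limit (7) and open squares none (15), and the dotted line marks the stop codon. The highest triangle is NOG1 at 2007 bp, and the lowest square is SSF2 at 426 bp.

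The upstream neighbours of the members were counted by orientation and mark beside those of all genes, and no test was run on these shares. The nearest upstream coding gene was divergent at 23 of 43 members (53.5%), beside 52% of all genes. It had H3K4me3 over its own start at 33 (76.7%, 61.4 to 88.2), beside 66.6%, and H3K4me2 at 16 (37.2%, 23 to 53.3), beside 46.7%. DBP10 and SLM3 were the only divergent pair that shared an H3K4me3 peak, while H3K4me2 lay in separate peaks in these genes. The share of divergent pairs with a shared peak among all genes is not given here, so this count has no background. The H3K4me2 peak of SLM3 ended at -666 bp from the DBP10 start codon, and that of DBP10 began at 356 bp.

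Other genes of ribosome production were counted with the same rule. Among 38 further genes of large-subunit assembly, H3K4me3 lay over 34 starts (89.5%), 16 of which were under H3K4me2 as well (42.1%). The 4 with neither mark were URB2 and DBP9, which act early in the nucleolus, the nuclease partner gene RAI1 and the cytoplasmic co-chaperone gene JJJ1. Of 55 genes of the small-subunit processome, 54 had H3K4me3 (98.2%) and 27 had H3K4me2 (49.1%). Of 81 large-subunit ribosomal protein genes, 60 had H3K4me3 (74.1%), and 0 had a base under H3K4me2 anywhere in the gene, which allows a share of up to 3.70% (exact upper bound 4.45%). H3K4me2 was thus present in the gene in 28 of 43 assembly factor genes and in 0 of 81 genes for the proteins of the same subunit. Of all genes, 48.5% had no base under H3K4me2. The part of gene length in this contrast was not tested. Many of those ribosomal protein genes have a near-identical copy, and how reads from such copies were placed was not examined. No test was run on these shares, since the lists were drawn up with earlier results of these data known.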

How the data were processed

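The submitters' processing notes name CASAVA 1.8.2, MACS 1.4.2 and the build sacCer3. The aligner, settings, control and the handling of reads with several matches are details not given in the sources used here. For each of the 2 antibody libraries the authors deposited 1 list of peaks. Per the file headers, a peak has a number of tags (a raw count), a fold (a ratio whose background is unnamed) and a p-value. The last column is a score rather than a probability in what the authors deposited, since its values all exceed 50, and it was read as -10 times log10 of p, as MACS writes it. Fold and score are the authors' values, and folds of the 2 marks were not compared.

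Genes came from the RefSeq R64 table, in which 96.4% of lengths are multiples of 3, so spans are coding spans with any introns. Strand came from the systematic name. The start peak of a gene is the peak with most bases in its first 500 bp. Coverage, edges, summits and centres were computed with Python (3.11.15), using pandas (2.3.3), scipy (1.17.1) and numpy (2.4.6). The functions were tested on simulated peaks, where 584 of 584 planted starts were recovered. The planted peaks had fixed offsets, on well-separated genes of at least 1500 bp. That check therefore covered the arithmetic of positions, not shorter genes or neighbouring peaks. Members, role groups and other lists were chosen with earlier results of these data known. The named genes are every member, with fuller values for those lacking H3K4me3, the highest and lowest folds, the farthest edges, the largest distances between marks, the longest gene and the paralogues. The summit bins, the count at the start codon, the split by H3K4me2 and the upstream genes were chosen after the values were seen. A planned search for promoter motifs was not run, and no sequences were analysed here.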

Additional observations from a re-analysis of the deposited data

How the results depend on the processing

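Of 65 alternative values for 10 results, 49 stayed within 1.5 times the count or within the exact 95% interval of the median. H3K4me3 was found at 37 to 42 of the 43 starts under the 8 peak, window and overlap settings, beside 34.5 to 65.2% of all genes. Counts of H3K4me2, and of both marks, were 19 in the main setting. They were 3 with all peaks cut to 500 bp centred on the summit and 3 in a window reaching 500 bp to either side of the start codon. They were 8 with at least 75% of the window covered and 9 over the first 300 bp. Under these settings, in the same order, 16.4, 24.4, 32.3 and 34.1% of all genes had H3K4me2. The shares of all genes with both marks under these settings are not given here. Of the 20 members with no other start window within 500 bp, 19 had H3K4me3 and 11 had H3K4me2, and fewer genes enter those counts. The shares of all genes under that filter were not computed, so these counts have no background. Trimming to 500 bp by construction moved the median upstream edge of H3K4me3 to 83 bp, its downstream edge to 582 bp and its coverage of the gene to 32.9%, and left 3 members with both marks, whose centre and summit distances had a median of -31 bp. With a score of at least 100 the median coverage of the gene by H3K4me2 was 0%, against 48.8%. It was 6.02% when each list was limited to peaks whose fold reached that list's median. Both values are among the 49 that stayed within the limits, because the interval of this median runs from 0 to 66.9%. For this result even a fall to 0% therefore counts as unchanged, and the 49 do not show that it is stable. No paired analysis was possible because each mark has 1 library. The unknown depth limits what a missing peak shows. Peaks over the start windows with scores below 100, lost at that limit, were those of RLP7 and CIC1 for H3K4me3 and of CIC1, MAK21, RRP1, RRP15, DBP10 and MDN1 for H3K4me2.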

Other observations

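Some members have another gene of ribosome production as their nearest upstream neighbour. NSA2 is divergent from LCP5, a small-subunit processome gene, with 301 bp between them, and LCP5 carried both marks over its start, NSA2 H3K4me3 alone. SSF1 is divergent from the small-subunit helicase gene RRP3, with 297 bp between them, and RRP3 carried both marks over its start. NOG2 lies 243 bp behind ESF2, another processome gene in the same direction, which had H3K4me3 alone over its start. NOP12 lies 502 bp behind RPS15, the gene of a small-subunit ribosomal protein, and both had H3K4me3 alone. MAK5 is divergent from BMT2, a gene for a methyltransferase of the large-subunit RNA, with 278 bp between them, and both had H3K4me3 alone. RRP5 is divergent from RPS10B, a small-subunit ribosomal protein gene, with 1290 bp between them, and RPS10B met the rule for neither mark.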
